A study of Mus musculus with 11 samples.

Results

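The 8 aquaporin genes Aqp1, Aqp2, Aqp3, Aqp4, Aqp6, Aqp7, Aqp8 and Aqp11 were followed in samples of the kidney S3 proximal tubule, out of 22180 genes with a probe set annotated with a single symbol. Members were found by symbol, and each of the 8 had 1 such probe set on the array. Their Entrez identifiers are 11826 for Aqp1, 11827 for Aqp2, 11828 for Aqp3, 11829 for Aqp4, 11831 for Aqp6, 11832 for Aqp7, 11833 for Aqp8 and 66333 for Aqp11. Total RNA was profiled in 5 arrays from THP -/- mice, which lack Tamm-Horsfall protein (uromodulin, the product of Umod), and in 6 arrays from WT mice, both of strain 129/SvEv and with no treatment named. The labels place 3 THP -/- and 5 WT arrays in batch 1, and 2 THP -/- and 1 WT array in batch 2. Neither sex nor age is given in the sources used here, and nothing in the labels ties arrays to separate mice, so every p-value refers to the spread among the arrays, which may be technical. Uromodulin comes chiefly from cells of the thick ascending limb, a neighbour of S3 in the outer medulla, and the series compares S3 tubules with and without it.

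Aquaporins are membrane channels that let water cross cells down an osmotic gradient, and members called aquaglyceroporins, among them Aqp3 and Aqp7, also pass glycerol. Along the nephron each segment uses its own set. Proximal tubule cells take water back through Aqp1, carry Aqp7 in the brush border of S3, and hold Aqp8 and Aqp11 mainly on internal membranes. In the collecting duct, vasopressin sends Aqp2 to the apical membrane of principal cells, water leaves through Aqp3 and Aqp4 on the basolateral side, and Aqp6 sits in vesicles of intercalated cells. In mice Aqp4 has also been described in the basolateral membrane of S3, so it is not a marker of the collecting duct alone.

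The promoters of Aqp1 and Aqp7, and of Aqp2 and Aqp3, are shown because the results below turn on these genes. In both pairs the signals varied alike from array to array, and both were picked after their values were seen. The set of RefSeq promoters used here (build GRCm38.p6) held a promoter for 7 of the 8 members, Aqp4 being the exception. Each line below is the 250 bases before the annotated start, 5′ to 3′ on the gene's strand, and for Aqp7 it is the first of 2 annotated starts.
Aqp1 (chr6:55336049-55336298, plus strand): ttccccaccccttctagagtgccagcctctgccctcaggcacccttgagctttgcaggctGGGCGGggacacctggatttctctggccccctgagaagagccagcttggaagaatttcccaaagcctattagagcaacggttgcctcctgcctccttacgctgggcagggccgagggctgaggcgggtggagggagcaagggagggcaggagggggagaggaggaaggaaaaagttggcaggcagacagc
Aqp7 (chr4:41048137-41048386, minus strand): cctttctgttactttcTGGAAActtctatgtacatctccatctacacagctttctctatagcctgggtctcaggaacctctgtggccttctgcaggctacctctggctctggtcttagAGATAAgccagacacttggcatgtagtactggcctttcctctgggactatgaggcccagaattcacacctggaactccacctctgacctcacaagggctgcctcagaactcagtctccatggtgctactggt
Aqp2 (chr15:99578806-99579055, plus strand): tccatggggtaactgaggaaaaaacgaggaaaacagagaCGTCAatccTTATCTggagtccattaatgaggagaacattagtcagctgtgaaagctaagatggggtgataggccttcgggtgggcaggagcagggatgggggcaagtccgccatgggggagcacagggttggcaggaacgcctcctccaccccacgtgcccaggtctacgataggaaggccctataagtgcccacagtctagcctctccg
Aqp3 (chr4:41098184-41098433, minus strand): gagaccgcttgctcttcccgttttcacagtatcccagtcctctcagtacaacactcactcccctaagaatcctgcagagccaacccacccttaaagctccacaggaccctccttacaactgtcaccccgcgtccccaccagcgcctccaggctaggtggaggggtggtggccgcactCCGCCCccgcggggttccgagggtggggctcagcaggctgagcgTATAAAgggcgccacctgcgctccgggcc
Capitals mark matches, on either strand, to any of 7 motifs: the TATA box TATAAA, the cyclic AMP response element core TGACG, the GATA motif AGATAA, the tonicity element core TGGAAA, the HNF1 core GTTAAT, the HNF4 motif CAAAGTCCA and the GC box GGGCGG. None of the marked matches overlaps another.

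The Aqp2 promoter held the cyclic AMP response element core at 211 to 207 bases before the start and the GATA motif at 202 to 197 bases, both on the opposite strand. Of all 32851 promoter windows of this length, 17.8% held the first and 9.99% the second. Aqp3 had a TATA box at 29 to 24 bases before its start, as 12.4% of windows did, and a GC box at 73 to 68 bases (32.7% of windows). Aqp7 had the GATA motif at 132 to 127 bases and the tonicity element core at 234 to 229 bases (18.6% of windows), and Aqp1 had a GC box alone, at 190 to 185 bases. The HNF1 core (6.43% of windows) and the HNF4 motif (0.384%) were not among the letters of these 4 windows. Letters alone show neither a bound factor nor its absence.

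One array stood apart. THP -/- replicate 4 had the highest signal of the 11 arrays for 8 of the 8 measured thick ascending limb markers, 6 of 10 principal cell markers and 7 of 9 intercalated cell markers, where 10% of all probe sets peaked in this array. The mean log2 level of the thick ascending limb list was 6.96 in THP -/- replicate 4 and 5.38 to 5.64 in the other THP -/- arrays, against 4.95 to 5.56 in WT arrays. Slc12a1, the sodium, potassium and chloride cotransporter of that segment, read 10.05 in it and at most 7.54 elsewhere. Rhcg, an ammonia channel of the distal nephron, read 6.51 there and at most 5.11 in the other arrays, and the proton pump subunit Atp6v1b1 read 6.21 against at most 5.32. Umod itself read 4.55 in this array and 3.68 to 5.27 over the THP -/- group, against 5.27 to 6.74 in WT. Its batch-adjusted log2 difference was -1.52, with -1.41 within batch 1 and -1.83 within batch 2. By limma the unadjusted p was 6.8e-05 and the p adjusted over all probe sets was 0.281. An exact permutation test (two-sided, genotype permuted inside each batch) gave p = 0.00595, the smallest that test can give. Whether the probe set lies in the deleted part of Umod is not known here. The mean log2 level of the 8 measured S3 markers was 7.60 to 8.84 in THP -/- and 6.86 to 8.16 in WT arrays. The amino acid transporter Slc7a13 read 9.73 to 11.54 in THP -/- and 9.91 to 10.54 in WT arrays. Of the other S3 markers, Atp11a, Slc22a19, Slc22a7, Slc22a13 and Cyp7b1 were bright, at or above percentile 90.5 of every array. Slc7a12 and Slc5a1 were dim. Slc7a12 read 3.64 to 5.31 in THP -/- and 2.72 to 4.64 in WT arrays. Slc5a1 read 3.74 to 5.03 in THP -/- and 4.07 to 4.76 in WT arrays. No detection values were available to call a marker present. Array medians lay between 3.85 and 4.01. In bulk samples, fewer cells of a type and less RNA per cell cannot be told apart.

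No aquaporin differed detectably between genotypes. With limma, 0 of the 8 members passed a Benjamini-Hochberg adjusted p of 0.05, as did 0 of the 41345 probe sets on the array (0%). At an unadjusted p under 0.05 there were 0 of 8 members, against 6.16% of all probe sets (3.4% higher and 2.76% lower in THP -/-). In 0 of 8 members were the groups fully apart, against 0.597% of probe sets. The fitted difference was positive, meaning higher in THP -/-, in 5 of 8 members and in 50.4% of all probe sets, and negative in 3 members and 49.6% of probe sets. The median log2 difference was 0.20 over the 8 members and 0.0021 over all probe sets. In 4 of 8 members the difference had the same sign within both batches, but batch 2 rests on 3 arrays. All values below are log2 RMA signals, with differences given as THP -/- minus WT, adjusted for batch. Levels of different genes are not compared, since each probe set has its own affinity.

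**Figure D1:**
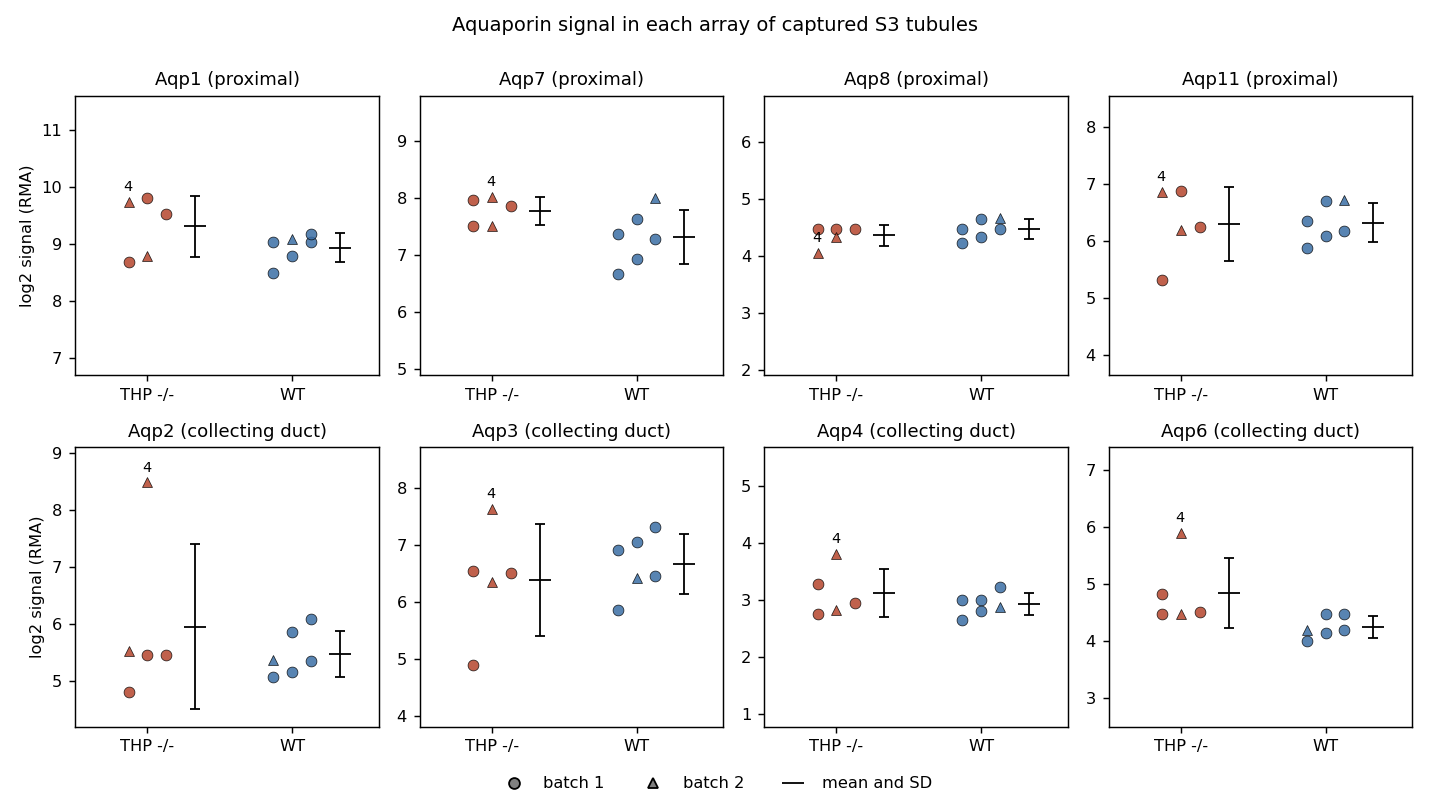
Log2 signal of the 8 aquaporins in each array, with THP -/- (red, n = 5) left of WT (blue, n = 6) in each panel, circles for batch 1, triangles for batch 2, and a bar for the mean and SD. The digit 4 marks THP -/- replicate 4, which at 8.48 for Aqp2 and 5.89 for Aqp6 lies above all other arrays. Every panel spans the same number of log2 units.

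Aqp1, the constitutive water channel of the proximal tubule and thin descending limb, read 8.69, 9.82, 9.54, 9.75 and 8.80 in THP -/- replicates 1 to 5. WT arrays ran from 8.49 to 9.19 with a median of 9.04. Thus 3 THP -/- arrays lay above every WT array and the other 2 lay inside the WT range. The means were 9.32 ± 0.536 (SD, n = 5) in THP -/- and 8.94 ± 0.258 (SD, n = 6) in WT arrays. The log2 difference of 0.37 ± 0.25 (SE), a 1.29-fold higher signal, had a 95% interval of -0.17 to 0.91. The adjusted p was 0.845 by limma, and p was 0.208 in the exact permutation test (two-sided, genotype permuted inside each batch). Within batch 1 the difference was 0.44 and within batch 2 it was 0.18. Without THP -/- replicate 2, the array with the highest Aqp1 signal, it was 0.20, and without THP -/- replicate 1 it was 0.58.

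Aqp7, the glycerol and water channel of the S3 brush border, read 7.5, 7.86, 7.97, 8.01 and 7.51 in THP -/- arrays, against 6.67 to 8.0 with a median of 7.33 in WT arrays. All 5 THP -/- arrays lay above the WT median, yet the highest WT array, replicate 6 of batch 2, equalled the top of the THP -/- group to within 0.01. The means were 7.77 ± 0.248 (SD, n = 5) in THP -/- and 7.31 ± 0.477 (SD, n = 6) in WT. The difference was 0.38 ± 0.22 (SE), or 1.30-fold, with a 95% interval of -0.11 to 0.87. The adjusted p was 0.828 by limma and the exact permutation p was 0.143. The direction differed between batches, at 0.60 within batch 1 and -0.24 within batch 2. Batch 1 alone gave an unadjusted limma p of 0.0293 and an adjusted p of 0.863.

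S3 markers were higher in THP -/- for 8 of 8 genes, against 50.4% of all probe sets, with 0 past the adjusted threshold. Their median log2 difference was 0.53, and the smallest was 0.0089, for Slc5a1. The part of the S3 markers in the Aqp1 and Aqp7 differences was not tested. The smallest p among these markers belonged to Slc22a7, an organic anion transporter, at 1.11 ± 0.34 (SE). The phospholipid flippase gene Atp11a was at 0.45 ± 0.15, the oxysterol hydroxylase gene Cyp7b1 at 0.95 ± 0.48 and the dim amino acid carrier Slc7a12 at 0.70 ± 0.44. General proximal tubule markers split into 4 higher and 6 lower, with a median of -0.018. The organic anion transporter Slc22a8 among them had the largest difference and the smallest p of the marker lists, 4.28 to 7.02 in THP -/- and 5.71 to 8.14 in WT arrays, at -1.78 ± 0.44 (SE, limma adjusted p = 0.586). S1 and S2 markers split into 1 higher and 6 lower, with a median of -0.26. Thick ascending limb markers were higher in 8 of 8 genes (median 0.41) and endothelial ones in 9 of 9 (median 0.056), thin limb markers in 2 of 7 (median -0.10) and leukocyte ones in 4 of 8 (median 0.0068), again with 0 past the adjusted threshold. The smallest p of the thin limb list was that of the small chaperone Cryab, at 1.06 ± 0.39 (SE), and that of the leukocyte list belonged to the macrophage receptor Csf1r, at 0.58 ± 0.19. With THP -/- replicate 4 left out, S3 markers were higher in 7 of 8 genes (median 0.49), thick ascending limb markers in 6 of 8 (0.25), endothelial ones in 7 of 9 (0.085), principal cell markers in 5 of 10 (-0.011) and intercalated cell markers in 3 of 9 (-0.061).

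Aqp8, found in the proximal tubule mainly inside cells, read 4.48 in THP -/- replicates 1 to 3, 4.05 in replicate 4 and 4.34 in replicate 5. WT arrays ran from 4.23 to 4.67 with a median of 4.48. The gene had the narrowest range of the 8, 0.62 log2 units over all arrays, and its lowest value was that of THP -/- replicate 4. The means were 4.37 ± 0.187 (SD, n = 5) in THP -/- and 4.47 ± 0.173 (SD, n = 6) in WT, a difference of -0.09 ± 0.13 (SE) with a 95% interval of -0.38 to 0.20 and an adjusted p of 0.928 by limma. Aqp11, a channel of the endoplasmic reticulum whose loss gives cystic kidneys in mice, read 5.31, 6.24, 6.88, 6.86 and 6.19 in THP -/- arrays, against 5.88 to 6.72 with a median of 6.27 in WT arrays. THP -/- arrays thus held both the lowest value and the highest pair. The means were nearly equal, 6.30 ± 0.641 (SD, n = 5) in THP -/- and 6.32 ± 0.338 (SD, n = 6) in WT, with a difference of -0.12 ± 0.27 (SE), a 95% interval of -0.72 to 0.48 and an adjusted p of 0.956 by limma. Without THP -/- replicate 1, the lowest array, the Aqp11 difference was 0.16. The exact permutation p was 0.571 for Aqp8 and 0.714 for Aqp11.

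Aqp2, the vasopressin-regulated channel of principal cells, gave the widest range of the 8 members, 3.67 log2 units. It read 5.46, 4.81, 5.46, 8.48 and 5.52 in THP -/- replicates 1 to 5, against 5.06 to 6.08 with a median of 5.35 in WT arrays. Replicate 4 alone was 5.28-fold above the next array, a WT one, and the other THP -/- arrays lay inside or below the WT range. The means were 5.95 ± 1.45 (SD, n = 5) in THP -/- and 5.48 ± 0.406 (SD, n = 6) in WT. The difference of 0.24 ± 0.52 (SE) had a 95% interval of -0.90 to 1.38. The adjusted p was 0.955 by limma and the exact permutation p was 0.827. Without THP -/- replicate 4 the sign turned, to -0.17 ± 0.24 (SE), with a mean of 5.31 ± 0.336 (SD, n = 4) in THP -/- and a limma adjusted p of 0.950. Within batch 1, which does not hold that array, the difference was -0.25, and within batch 2 it was 1.64. Principal cell markers, with Aqp2 and Aqp3 left out, had a mean level of 4.42 to 5.23 in THP -/- and 4.46 to 4.77 in WT arrays, with 6 of 10 higher and 4 lower, 0 past the adjusted threshold and a median of 0.036, and their part in the Aqp2 and Aqp3 differences was not tested.

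Aqp3, the basolateral water and glycerol channel of principal cells, read 6.51, 4.89, 6.54, 7.64 and 6.35 in THP -/- arrays, against 5.86 to 7.32 with a median of 6.69 in WT arrays. Here both ends of the range were THP -/- arrays, replicate 4 at the top and replicate 2 at the bottom, 1.96-fold below the next array. The means were 6.39 ± 0.981 (SD, n = 5) in THP -/- and 6.67 ± 0.529 (SD, n = 6) in WT, with a difference of -0.40 ± 0.42 (SE), and a 95% interval of -1.33 to 0.54. The adjusted p was 0.900 by limma and the exact permutation p was 0.458. Leaving out THP -/- replicate 2 gave 0.05, and leaving out replicate 4 gave -0.60 ± 0.39 (SE). The difference was -0.74 within batch 1 and 0.58 within batch 2.

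Aqp6, an intracellular channel of intercalated cells that conducts anions, had the smallest p of the 8 members. It read 4.47, 4.51, 4.82, 5.89 and 4.47 in THP -/- arrays, against 3.99 to 4.47 with a median of 4.18 in WT arrays. All 5 THP -/- arrays lay at or above the highest WT array, and the groups met at 4.47. Aqp6 lay at percentiles 52.8 to 85.8 of its arrays, the top being THP -/- replicate 4. No detection value was available to place it above background. The means were 4.83 ± 0.609 (SD, n = 5) in THP -/- and 4.24 ± 0.190 (SD, n = 6) in WT. The difference was 0.52 ± 0.24 (SE), with a 95% interval of -0.02 to 1.06, an unadjusted limma p of 0.0566, an adjusted p of 0.819 and an exact permutation p of 0.0893. It was 0.35 within batch 1 and 1.0 within batch 2. Without THP -/- replicate 4 the difference was 0.34 ± 0.14 (SE) with an unadjusted limma p of 0.0328 and an adjusted p of 0.890. In that setting 1 of 8 members, Aqp6, had an unadjusted p under 0.05, against 5.59% of all probe sets. Intercalated cell markers had a mean level of 3.98 to 4.79 in THP -/- and 3.79 to 4.28 in WT arrays, with 5 of 9 higher and 4 lower, and their part in the Aqp6 difference was not tested.

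Aqp4, which principal cells and mouse S3 both carry basolaterally, was dim, below the median of its array in all 11 arrays. It read 3.27, 2.95, 2.76, 3.80 and 2.82 in THP -/- arrays, against 2.65 to 3.23 with a median of 2.93 in WT arrays, and no value of detection was available to place it above background. Replicate 4 was again the highest array. The difference was 0.16 ± 0.20 (SE), with a 95% interval of -0.28 to 0.59, an adjusted p of 0.915 by limma and an exact permutation p of 0.548, and it was 0.03 without that array.

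**Figure D2:**
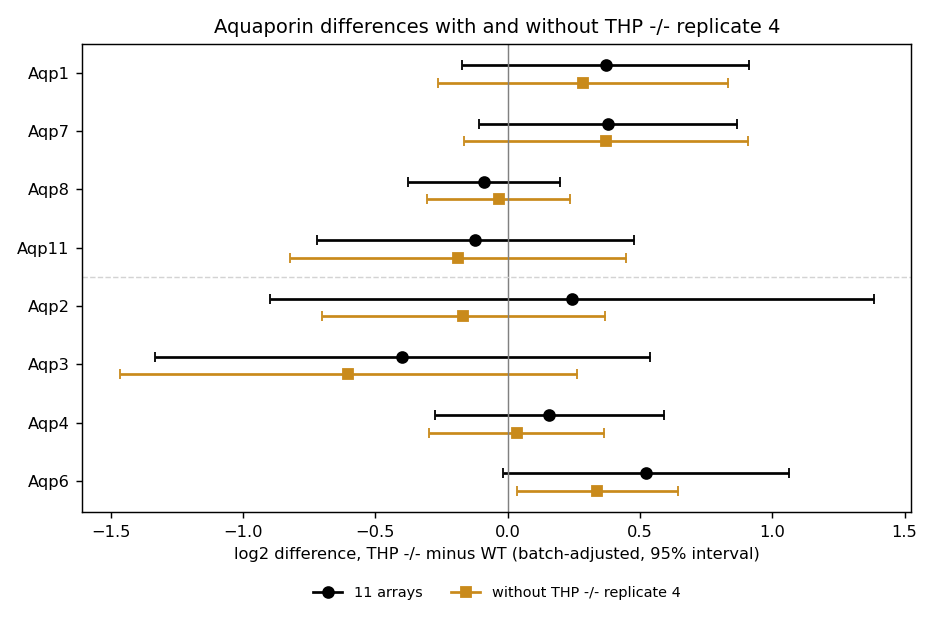
Batch-adjusted log2 difference of each aquaporin, THP -/- minus WT, with its 95% interval from limma, over all 11 arrays (black circles) and without THP -/- replicate 4 (orange squares). Proximal members are above the dashed line. All 8 black intervals include 0, and Aqp2 changes sign, from 0.24 with all arrays to -0.17 without replicate 4.

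THP -/- replicate 4 was the highest array for 5 of 8 members, among them all 4 collecting duct members, where 10% of all probe sets peaked in it. When each gene was centred on its mean over the 11 arrays, the 4 collecting duct members together deviated by 1.51 in THP -/- replicate 4 and by -0.65 to -0.01 in the other THP -/- arrays, against -0.40 to 0.18 in WT arrays. The 4 proximal members together deviated by 0.33 in that array and by -0.35 to 0.38 over the THP -/- group, against -0.28 to 0.28 in WT. By these means this array was far from the rest in collecting duct aquaporins and within the spread in proximal ones. Among the proximal members it deviated by 0.64 for Aqp1, 0.49 for Aqp7 and 0.55 for Aqp11, but by -0.37 for Aqp8. Aqp8, whose signal over background could not be judged, thus lowered the proximal mean. Proximal minus collecting duct deviation was -0.34, 0.91, 0.42, -1.19 and 0.02 in THP -/- replicates 1 to 5, against -0.36 to 0.51 in WT arrays. Replicates 2 and 4, at opposite ends, were both THP -/- arrays. The group means were -0.04 ± 0.793 (SD, n = 5) in THP -/- and 0.03 ± 0.361 (SD, n = 6) in WT, and the batch-adjusted difference was 0.0034. It was 0.21 without THP -/- replicate 4 and -0.28 without THP -/- replicate 2. It was 0.39 within batch 1 and -1.10 within batch 2, and no p is given for a score over chosen genes.

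**Figure D3:**
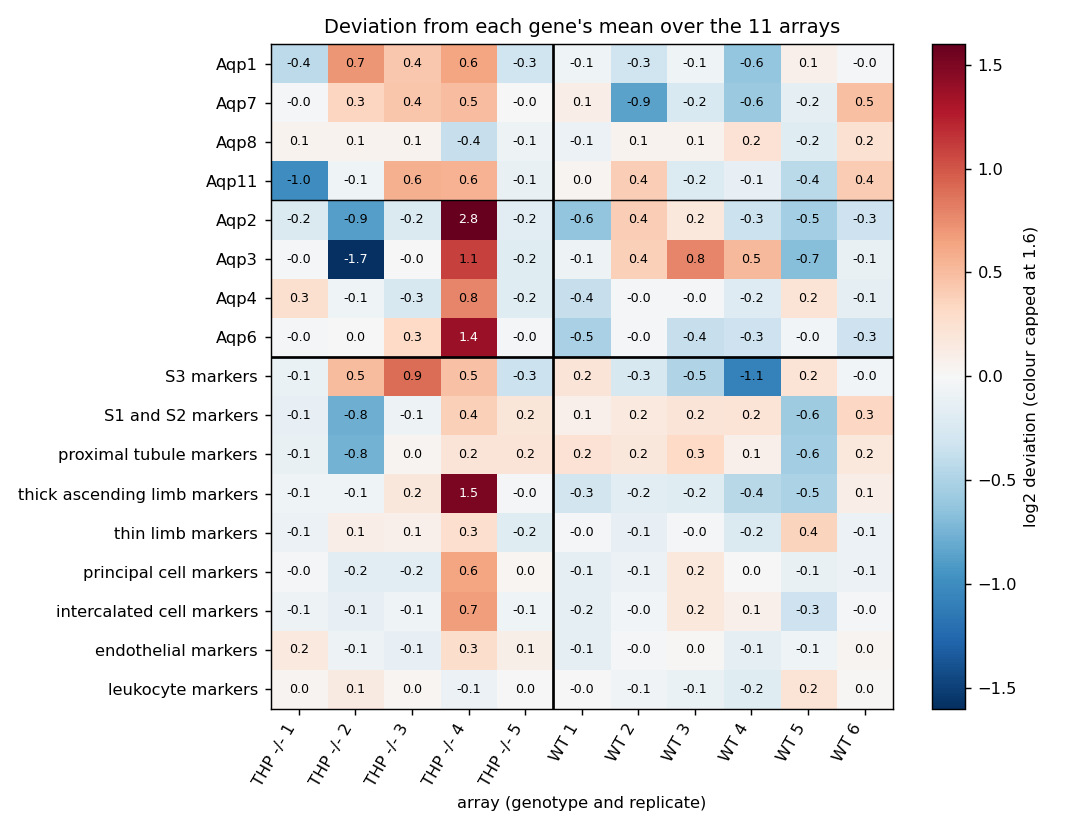
Log2 deviation from the mean over the 11 arrays for each aquaporin (upper 8 rows, proximal above collecting duct) and for the mean of each marker list (lower 9 rows), with THP -/- arrays left of WT arrays. THP -/- replicate 4 stands out in Aqp2, Aqp6 and the thick ascending limb, principal and intercalated cell lists, and THP -/- replicate 2 is low in Aqp3 and in S1 and S2 markers.

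All pairs of members were correlated, and those named here were picked after their values were seen, with no test. Over the 11 arrays Pearson's r was 0.73 for Aqp1 with Aqp7, and 0.67 without THP -/- replicate 4, while Aqp2 and Aqp3 had r = 0.70, and 0.77 without that array. Aqp2 with Aqp6 gave r = 0.85 over all arrays but 0.06 without THP -/- replicate 4. In the same order, Aqp2 with Aqp4 gave 0.79 and 0.14, and Aqp4 with Aqp6 gave 0.79 and 0.26. Those relations rest on 1 array. Aqp1 and Aqp3 ran opposite ways, at r = -0.29 and, without replicate 4, -0.70. THP -/- replicate 2 was the highest array for Aqp1 (9.82) and the lowest for Aqp3 (4.89). Aqp4 and Aqp11 had r = -0.05 and, without replicate 4, -0.68. There THP -/- replicate 1 was the highest array left for Aqp4 (3.27) and the lowest for Aqp11 (5.31). How far these 2 relations rest on those arrays was not tested. All these r values are descriptions of arrays that share batch and normalization. Members that are neighbours on a chromosome were looked at as well. Aqp3 and Aqp7, with no protein-coding gene between their starts on chromosome 4, had r = -0.24, and -0.53 without THP -/- replicate 4. Aqp5, a channel of secretory glands, lies between Aqp2 and Aqp6 on chromosome 15 with no other annotated gene starting there, and read 5.0 in THP -/- replicate 4 and 4.65 to 5.36 over the THP -/- arrays, against 5.09 to 5.17 in WT.

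Across arrays, Aqp1 tended to be high where the S3 markers were high, with THP -/- replicate 4 or without it. Each member was set against each of 9 marker scores, 72 relations in all, with permutation p-values adjusted by Benjamini-Hochberg over them. Aqp1 with the S3 score had Pearson's r = 0.84 (permutation p = 0.0008, adjusted 0.0288) and Spearman's rho = 0.85 (permutation p = 0.00128, adjusted 0.0677) over 11 arrays. Pearson's r was 0.84 without THP -/- replicate 4, 0.82 without the 2 arrays farthest from the median score, 0.83 within the 8 arrays of batch 1, 0.84 within THP -/- and 0.86 within WT arrays. Aqp7 with the S3 score had r = 0.73 and rho = 0.71 (permutation p = 0.0106 and 0.0175), which did not pass adjustment (0.0763 and 0.145), with r = 0.60 without the 2 farthest arrays and 0.80 within batch 1. Its relation to the thick ascending limb score was r = 0.57 and rho = 0.77 (permutation p = 0.0678 and 0.00789, adjusted 0.221 and 0.114), with r = 0.63 without THP -/- replicate 4, 0.71 without the 2 farthest arrays and 0.55 within batch 1. The thin descending limb also carries Aqp1, but the thin limb list is not limited to that part. Aqp1 with this list had r = 0.75 and rho = 0.82 (permutation p = 0.00807 and 0.00302, adjusted 0.0682 and 0.0677). Pearson's r was 0.92 without the 2 farthest arrays, 0.68 without THP -/- replicate 4 and 0.68 within batch 1. Of the 7 measured thin limb markers 5 lay on average below the median of all values. Cryab, at 5.25 to 7.98 over the arrays, varied most among the 7 and so weighed most in the score. Aqp1 with the endothelial list, whose cells in the vasa recta also carry it, had r = 0.12.

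Aqp3 was set against the proximal and the collecting duct lists in the same way, and whether its relations to them differ was not tested. With the S1 and S2 score it had r = 0.86 (permutation p = 0.00074, adjusted 0.0288) and rho = 0.65 (permutation p = 0.0364, adjusted 0.187), and with the general proximal tubule score r = 0.84 (permutation p = 0.00133, adjusted 0.0319) and rho = 0.57 (permutation p = 0.0699, adjusted 0.296). Both rested in part on THP -/- replicate 2 and WT replicate 5, which were low in all 3 measures, and r was 0.50 and 0.37 without them. Within batch 1, which holds both of those arrays, r was 0.95 for the S1 and S2 score and 0.92 for the proximal tubule score. With the intercalated score Aqp3 had r = 0.72 and rho = 0.82 (permutation p = 0.0256 and 0.00354, adjusted 0.142 and 0.0677), and r = 0.70 without the 2 farthest arrays. Its relation to the principal cell score was r = 0.69 and rho = 0.65 (permutation p = 0.0381 and 0.034, adjusted 0.171 and 0.187). The most negative was that with the leukocyte score, at r = -0.82 and rho = -0.81 (permutation p = 0.00283 and 0.00376, adjusted 0.0509 and 0.0677), with r = -0.95 without the 2 farthest arrays and -0.81 within batch 1. Aqp2 with the principal cell score had r = 0.93 and rho = 0.74 (permutation p = 0.00448 and 0.0109, adjusted 0.0532 and 0.131), but r = 0.41 without the 2 farthest arrays, THP -/- replicate 4 among them, and 0.57 within batch 1. In all, 3 of the 72 relations passed by Pearson's r, those of Aqp1 with S3 and of Aqp3 with the S1 and S2 and the proximal tubule lists, and 0 passed by Spearman's rho.

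**Figure D4:**
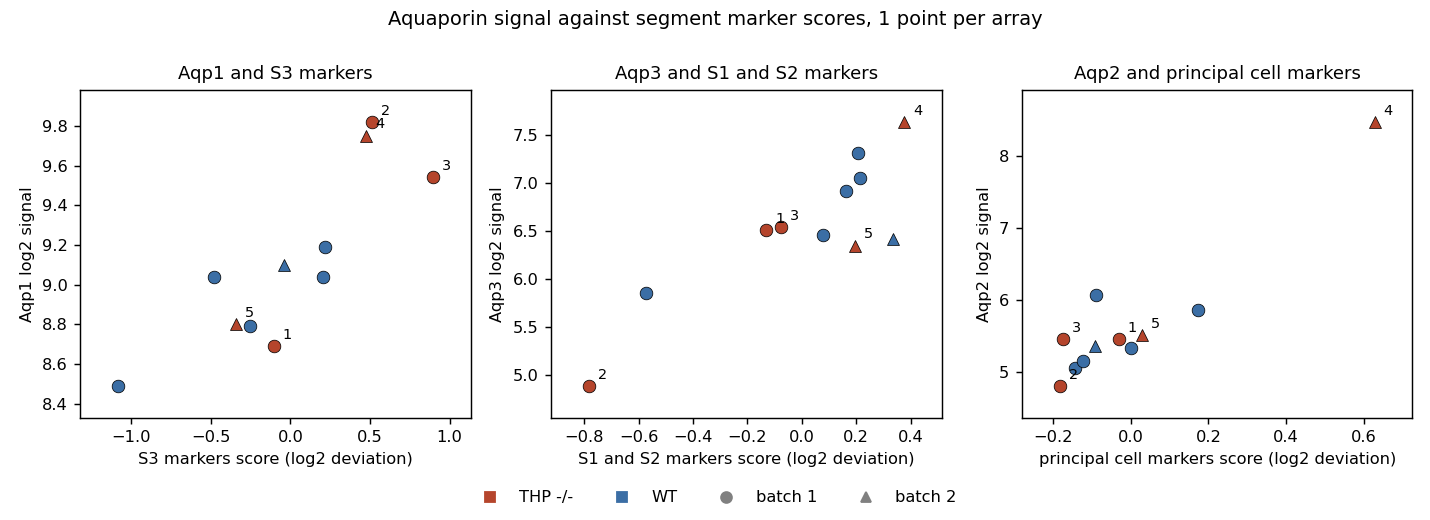
Log2 signal of Aqp1, Aqp3 and Aqp2 against the score of a marker list (mean log2 deviation of its genes), 1 point per array, THP -/- in red with replicate numbers and WT in blue, circles for batch 1 and triangles for batch 2. Aqp1 tends to be higher where the S3 score is higher, though the array with the highest score, THP -/- replicate 3, reads 9.54, below the 9.82 of replicate 2. WT replicate 5 and THP -/- replicate 2 lie at the low end of the Aqp3 panel, and THP -/- replicate 4 lies alone at the top of the Aqp2 panel.

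The genes whose signal was most like each member over the 11 arrays were ranked by Pearson's r among 11750 genes. High values follow from picking the top of so many genes. Those without THP -/- replicate 4 reuse the same arrays, so they are no independent check. For Aqp1 these were Igfbp7 (0.92), Dad1 (0.92) and Ppic (0.92), for Aqp7 Cfl2 (0.94), Fem1c (0.92) and Tbc1d19 (0.92), and for Aqp11 Lrrc19 (0.96), Pigx (0.92) and Rnf167 (0.91). Without THP -/- replicate 4 those of Aqp1 stayed between 0.90 and 0.92. For Aqp2 they were Ephx1, Lrpprc and Ampd3, each at 0.95, which stood at 0.55, 0.62 and 0.55 without that array. Aqp3 was closest to Ppp2r3a (0.93), Zfp384 (0.91) and Slc51a (0.91), Aqp4 to Itgb2 (0.96), Taf1 (0.90) and Utrn (0.90), Aqp6 to Tpd52l1 (0.94), Fabp4 (0.93) and Igkv5-43 (0.93), and Aqp8 to Tusc1 (0.89), Fgf20 (0.87) and Clca1 (0.85). When THP -/- replicate 4 was left out, the values for Aqp4 were 0.89, 0.68 and 0.67, those for Aqp6 were 0.85, 0.74 and 0.63, and those for Aqp8 were 0.88, 0.73 and 0.73, each in the order just given.

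Genes that act with the aquaporins gave no call either. Of 26 measured genes of the vasopressin and Aqp2 trafficking pathway, 19 had a positive and 7 a negative difference, 0 passed the adjusted limma threshold and 1 had an unadjusted p under 0.05 (6.16% of all probe sets), with a median log2 difference of 0.12 against 0.0021 over all probe sets. That gene was Myo5b, the motor that carries recycling vesicles, at 6.87 in THP -/- and 6.47 in WT (0.38 ± 0.12, SE, limma adjusted p = 0.735). It was followed by the protein kinase A subunits Prkar2b (0.43 ± 0.21) and Prkacb (0.26 ± 0.16) and the transcription factor Creb1 (0.24 ± 0.14). The vasopressin receptor Avpr2 ran from 3.92 to 4.54 in THP -/- and from 3.46 to 4.51 in WT arrays, highest in THP -/- replicate 4.

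Among 11 measured genes of glycerol handling, the metabolic side of Aqp3 and Aqp7, 8 were higher and 3 lower, 0 passed the adjusted limma threshold and 3 had an unadjusted p under 0.05 (6.16% of all probe sets), with a median of 0.19. That count was 2 without THP -/- replicate 4. The lipid droplet coat gene Plin2 was at 0.43 ± 0.11 (SE), the monoglyceride lipase gene Mgll at 0.48 ± 0.18, the glycerol kinase relative Gk5 at 0.32 ± 0.14 and the triglyceride lipase gene Pnpla2 at 0.20 ± 0.13, with limma adjusted p from 0.595 to 0.850. Of 8 measured genes for organic osmolytes and urea, 6 were higher and 2 lower, with 0 past the adjusted threshold, 2 at an unadjusted p under 0.05 (6.16% of all probe sets) and a median of 0.042, or 0.013 without THP -/- replicate 4. The neutral amino acid carrier Slc38a2 was at 0.88 ± 0.23 (SE) and the taurine carrier Slc6a6 at 0.61 ± 0.19, while the chaperone Hspa4l was at 0.19 and the urea transporter Slc14a2 at -0.07.

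The 4 other aquaporins on the array, outside the members, served as company for the family. Aqp9, a glycerol channel of liver, averaged 4.42 ± 0.168 (SD, n = 5) in THP -/- and 4.12 ± 0.184 (SD, n = 6) in WT, with a difference of 0.29 ± 0.13 (SE), an unadjusted limma p of 0.0487, an adjusted p of 0.809 and an exact permutation p of 0.0476. All 5 THP -/- arrays lay above the WT median. Aqp9 was dim, at percentiles 45.9 to 65.5 of its arrays, and no detection value was available to place it above background. Aqp5, Aqp12 and the lens channel Mip differed by -0.16, -0.08 and -0.19.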

How the data were processed

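Per the labels' protocols, RNA of the S3 samples came from an Arcturus PicoPure extraction, and 2 ng of it entered the Affymetrix WT Pico labelling with biotin. The deposited values are log2 signals, made by the authors with Partek 6.6 and RMA per the submitters' processing notes. RMA gives arrays a like distribution, so a shift common to most genes would be understated. Neither a batch correction before deposit nor detection values are given in the sources used here.

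Probe sets were named from the platform annotation: of 41345, 23521 carried 1 symbol, 1814 several and 16010 none. Per gene the probe set with the highest mean was kept. All probe sets were tested with limma 3.58.1 in R 4.3.3 (genotype and batch as terms, two-sided, Benjamini-Hochberg over all probe sets). The fit was tested on simulated data. Exact permutation tests used the 168 arrangements of genotype within batches (smallest p 0.00595). Correlations used 100000 permutations. Marker scores are means of gene-centred values without aquaporins.

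Named were all members, the other aquaporins, Umod, up to 4 genes of smallest p per list, 3 genes most like each member, and markers singled out after their values were seen. The members and lists were chosen with earlier results of these data known. Alternatives varied the batch term, normalization, array weights, prior, filters, probe set rule, genes of the aquaporin score and arrays used. Leaving THP -/- replicate 4 out of the list counts was chosen after seeing the data. Precision is limited by the number of arrays. Plots used matplotlib 3.10.9 in Python 3.11.15.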

Additional observations from a re-analysis of the deposited data

Results flagged for a closer look

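Within a group of arrays, the highest or lowest value was flagged when its gap to the nearest other array was large relative to the group's whole range (Dixon's ratio at the 95% level). Of 50 groups of values examined, 10 were flagged, and chance flags about 5%, but the values share arrays and are not independent. THP -/- replicate 4 was flagged as highest of its group for Aqp2 at 8.48 (next 5.52) and for Aqp6 at 5.89 (next 4.82). The same array was flagged as highest for the thick ascending limb score at 1.5 (next 0.18), the principal cell score at 0.63 (next 0.03) and the intercalated cell score at 0.67 (next -0.07), and as lowest for the lens aquaporin Mip at 4.55 (next 5.08). Without it the Mip difference between genotypes was -0.13, against -0.19 with it. WT replicate 5 was flagged as lowest for the proximal tubule score at -0.55 (next 0.08) and for the S1 and S2 score at -0.57 (next 0.08), and as highest for the thin limb score at 0.35 (next -0.02). THP -/- replicate 5 was flagged as lowest for Aqp12 at 3.49 (next 4.06).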

How the results depend on the processing

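Under 11 other settings and with each of the 11 arrays left out in turn, 0 of the 8 aquaporins passed the adjusted limma threshold, and the smallest adjusted p of any was 0.636. Of 175 such values, 166 kept their sign. Part of that count was fixed in advance, since the prior, the filters and the averaging of probe sets could not move a member's difference. Aqp2 turned to -0.25 in batch 1 alone and to -0.42 with the replicate block, and ran from -0.25 to 0.50 when arrays were left out (0.24 over all). Aqp8 turned to 0.046 in batch 1 alone and to 0.05 with the replicate block, and ran from -0.14 to 0.046 when arrays were left out. Aqp3 ran from -0.74 to 0.0473 (without THP -/- replicate 2) and Aqp11 from -0.38 to 0.16 when arrays were left out. Without WT replicate 6 the change rests on batch 1 alone. The count of probe sets past the threshold was 0, but 3 in batch 1 alone, 1 among probe sets with 1 symbol, and 0 to 11 when arrays were left out (11 without THP -/- replicate 5). The cause was not tested. The proximal minus collecting duct difference (0.0034) ran from -0.08 to 0.45 over 9 settings and from -0.28 to 0.39 over left-out arrays. The 0.45 came from a change of genes, with Aqp1 and Aqp7 set against Aqp2 and Aqp3 alone. With all members the replicate block gave 0.405. Same-numbered arrays did not deviate together (r from -0.18 to 0.01), so these values gave no sign that the numbers pair arrays. They cannot exclude it, since the arrays numbered 4 and 5 differ in batch between genotypes. The replicate block left 3 residual degrees of freedom and 0 calls. The filter on dim probe sets removed Aqp4. Each member had a single probe set, so averaging probe sets changed nothing. Signal over background could not be judged for Aqp4, Aqp6 and Aqp8, nor for Aqp9 and Aqp12 outside the members.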

Other observations

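Some signals repeated to the second decimal across arrays. Aqp8 read 4.48 in 5 of the 11 arrays, in both genotypes, and Aqp6 read 4.47 in 3. Over all probe sets, 5.03% had a value shared by at least 5 arrays and 27.1% one shared by at least 3, so ties such as the one at which the 2 groups of Aqp6 met occur throughout the deposited table.

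THP -/- replicate 2 was the highest array for Aqp1 at 9.82 and the lowest for Aqp2 at 4.81 and for Aqp3 at 4.89. It also had the lowest score of the 11 arrays for the general proximal tubule list, at -0.75, and a high one for S3, at 0.51. Without it the Aqp1 difference was 0.20 and the Aqp3 difference was 0.05.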
